A study of Mus musculus with 30 samples.

Results

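Mouse embryonic stem (ES) cells that carry floxed alleles of Jmj (Jarid2) in their intact form, labelled Fl/Fl and described as wild-type, were followed for 8 days after leukaemia inhibitory factor (LIF) was withdrawn, and the step examined here runs from day 4 to day 6. It rests on 4 arrays, 2 at day 4 and 2 at day 6, of the 30 arrays in the series, and on 18194 genes, each read from the probe set with the highest mean intensity over all arrays. The other Fl/Fl arrays (2 each at days 0, 2 and 8) and 20 arrays of ES cells labelled null for Jmj, from the same 5 time points with 2 to 5 arrays a day, were used for the shared estimate of the spread and for the comparisons named below. Total RNA of each culture was copied into biotin-labelled cRNA and hybridised to Affymetrix arrays. Arrays of 1 group are labelled as biological replicates, though nothing says that they came from separate cultures, so the p-values below measure only the spread between these samples. The labels also do not say how many clones the Fl/Fl and null arrays represent.

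LIF signalling holds mouse ES cells in the pluripotent state, and its withdrawal lets them enter differentiation. Pou5f1 (Oct4), Nanog and Sox2 are transcription factors at the centre of the network that maintains pluripotency. Cells that later leave an epithelial state in the embryo lose epithelial adhesion proteins, switch on repressors such as Zeb1 and Zeb2, and deposit a fibrillar collagen matrix. Smooth muscle and myofibroblasts in addition produce actin isoforms, tropomyosins and the other proteins of the contractile apparatus, and these genes are well-known targets of serum response factor (Srf).

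All values are the deposited array intensities, which have no unit. Changes are differences of log2(intensity + 4), so folds of dim genes are understated, and adjusted p-values come from limma with Benjamini-Hochberg adjustment over all genes. The 4 arrays were alike in scale, with mean intensities of 349.3 to 354.7, and their 3'-to-5' actin ratios were 1.573 and 1.526 at day 4 and 1.546 and 1.48 at day 6. Replicates correlated at r = 0.9966 at day 4 and 0.9967 at day 6 across genes, which are not independent observations. At an adjusted p under 0.05, 629 genes (3.46%) changed between the days. Of these, 337 (1.85%) were higher and 292 (1.60%) lower at day 6, and 250 and 145 of them by at least 2-fold. The share of calls that were higher was 53.6%, and it was 44.9% with the arrays scaled to a common 75th percentile and 42.9% without day 4 replicate 2, so which direction held more calls depended on these choices. The median change over all genes was 0.00. Both day 6 arrays lay above both day 4 arrays for 19.3% of genes and below them for 20.4%, and the counts of members below are to be read against these shares. In mixed cultures, fewer cells of a type and less RNA per cell cannot be told apart.

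Pou5f1 and Nanog both fell steeply in this step. Pou5f1 read 4243 and 4592 at day 4 and 384 and 494 at day 6. The day 4 mean was 4417.5 ± 246.8 and the day 6 mean 439.0 ± 77.8 (SD, n = 2 each), so the groups lay far apart. The fall was 10.1-fold, or 3.33 on the log2 scale (SE 0.377), with an adjusted p of 1.2e-05. Nanog read 1261 and 1435 at day 4 and 160 and 209 at day 6. Again both day 6 arrays lay below both day 4 arrays, by 7.22-fold (log2 fall of 2.85, SE 0.506, adjusted p = 0.0021). Each call held when any 1 of the 4 arrays was left out. In a limma fit of these 4 arrays alone Pou5f1 remained called, and Nanog just missed the threshold (adjusted p = 0.0567).

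The course of the 2 genes before day 4 is best read from the single arrays. Pou5f1 read 9284 and 6474 at day 0 and 7441 and 7848 at day 2, and its day 4 values lay 1.73-fold under those of day 2 (adjusted p = 0.222). Nanog read 4989 and 4466 at day 0 and 1376 and 1512 at day 2, a 3.27-fold difference with an adjusted p of 0.0745, and its day 4 arrays overlapped those of day 2. At day 8 Pou5f1 read 350 and 96 and Nanog 267 and 124, all far below the arrays of day 4. The change from day 4 to 6 in Pou5f1 was more negative than that from day 2 to 4 by 2.54 on the log2 scale (SE 0.654), with an adjusted p of 0.0552, just short of the threshold. For Nanog that difference was -2.75 (SE 0.877, adjusted p = 0.162).

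**Figure D1:**
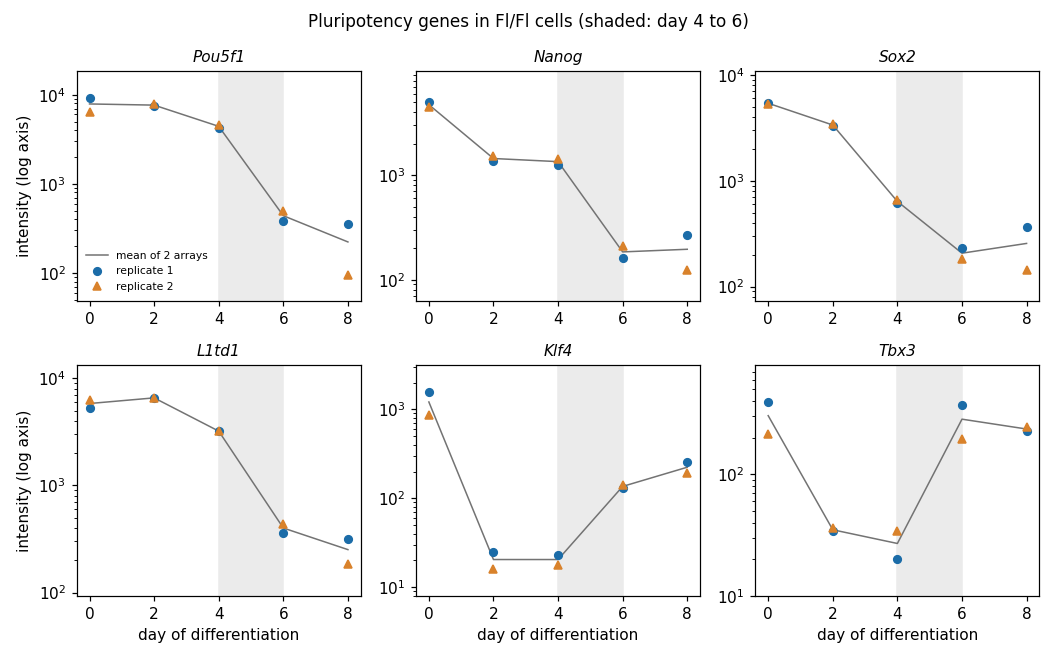
Intensity (log axis) of 6 pluripotency genes in each Fl/Fl array against the day of differentiation, with both replicates as points, their mean as a line and the step from day 4 to 6 shaded. Pou5f1 fell from 4243 and 4592 to 384 and 494 in the shaded step, while Klf4 and Tbx3 were higher at day 6 than at day 4.

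Of 33 measured pluripotency genes, 9 fell, 2 rose and 22 did not pass the test, and the median change was -0.90 against 0.00 for all genes. Both day 6 arrays lay below both day 4 arrays for 24 of the 33. From day 2 to 4 the median change of this list was -2.03, with 21 genes called lower and 1 higher. From day 6 to 8 it was 0.00, with 3 called lower and 0 higher. The list holds Pou5f1 and Nanog, and its fall was known when it was drawn up. L1td1, an RNA-binding protein abundant in ES cells, read 3190 and 3234 at day 4 and 362 and 438 at day 6, an 8.00-fold fall with an adjusted p of 1.67e-07. Gdf3, a TGF-beta family ligand of the early embryo, went from 216 and 249 to 14 and 13, which is close to the lowest signals on these arrays (adjusted p = 9.01e-05). Utf1, a chromatin-associated factor of undifferentiated cells, read 298 and 365 before and 25 and 56 after (8.00-fold, adjusted p = 0.00268). Lefty1, a secreted inhibitor of Nodal, fell from 813 and 816 to 192 and 225 (3.86-fold, adjusted p = 0.0235). The remaining falls were those of Sox2, Rif1, a protein of replication timing and DNA repair, and Mybl2, a cell cycle transcription factor.

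Sox2 was lost earlier than Pou5f1. It read 3307 and 3425 at day 2, 623 and 654 at day 4, and 231 and 183 at day 6. The step from day 4 to 6 was a 3.06-fold fall (adjusted p = 0.00904), and the step before it a 5.25-fold fall (adjusted p = 0.000108). These 2 steps share the day 4 arrays, and the test of their difference gave an adjusted p of 0.967. Esrrb, Fgf4 and Zfp42, 3 further genes of the ES cell network, were near the bottom of the scale by day 4. Zfp42 (Rex1) read 48 and 54 at day 4 and 17 at both arrays of day 6 (adjusted p = 0.0687). Esrrb read 12 and 25, then 8 and 13, and Fgf4 read 5 and 9, then 4 in both, so little signal was left for a further fall.

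The 2 genes of the list that rose, Klf4 and Tbx3, encode transcription factors that act in naive ES cells but are also made by many differentiated cells. Klf4 read 1564 and 855 at day 0, 23 and 18 at day 4, and 132 and 140 at day 6 (5.74-fold, adjusted p = 0.0144). Tbx3 read 20 and 34 at day 4 and 375 and 194 at day 6 (9.07-fold, adjusted p = 0.00827). Of the 11 calls in this list, 4 (L1td1, Pou5f1, Gdf3 and Nanog) held when any 1 of the 4 arrays was left out. The other 7 were lost without at least 1 array, with adjusted p-values up to 0.21. Among 16 genes of the post-implantation epiblast, the stage after the naive state, 2 fell and none rose: Nodal, a TGF-beta family ligand, read 2844 and 2811 at day 4 and 1047 and 1284 at day 6, and Sox3 read 124 and 137, then 57 and 43. Both calls were lost with 1 array left out (adjusted p of 0.249 for Nodal and 0.338 for Sox3). Fgf5, the classic epiblast growth factor, read 266 and 413, then 121 and 74, and did not pass the test (adjusted p = 0.14).

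Several fibrillar collagen genes rose in the same step. In the list of 38 measured genes of the mesenchymal matrix, 8 rose, none fell and 30 did not pass the test. The median change was 0.78, and both day 6 arrays lay above both day 4 arrays for 22 genes. The summed intensity of the 38 genes was 18307 to 18416 at day 4 and 37955 to 42354 at day 6. The median change of the list was 0.03 from day 2 to 4, with 4 genes called higher. From day 6 to 8 it was 0.87, with 11 called higher, and 0 were called lower in either step. Col1a1, a chain of type I collagen, read 214 and 225 at day 4 and 1377 and 1799 at day 6 (7.06-fold, adjusted p = 0.02). Col1a2, the partner chain, read 29 and 32 and then 284 and 291 (8.46-fold, adjusted p = 0.000769). Col3a1, the chain of type III collagen, rose from 14 and 20 to 283 and 336 (log2 change of 3.91, adjusted p = 0.0104). For each of these 3 collagen genes the groups were separated by several-fold, and all read higher still at day 8, between 1596 and 6961.

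The largest rise of any called gene was that of Tnc, which encodes tenascin C, a matrix glycoprotein of embryonic mesenchyme. It read 14 and 26 at day 4 and 811 and 930 at day 6 (37.5-fold, log2 change of 5.23, SE 0.449, adjusted p = 2.57e-07). At day 8 it read 1179 and 1105, so its rise lay mostly within this step, and the step differed from both the one before (adjusted p = 0.000729) and the one after (adjusted p = 0.0015), also with any 1 array left out. Postn (periostin), a matrix protein of connective tissue, behaved otherwise. It read 11 and 9 at day 4, 62 and 52 at day 6, and 1149 and 2282 at day 8. Its rise from day 4 to 6 passed the test (4.35-fold, adjusted p = 0.000114), and the following step was larger (adjusted p of the difference 0.00885, up to 0.2 with 1 array left out). Col11a1, Bgn and Loxl1, which encode a fibril-forming collagen chain, the proteoglycan biglycan and a collagen cross-linking enzyme, completed the 8. Fn1 (fibronectin) was high on all 4 arrays, with 8909 and 8501 at day 4 and 15890 and 16986 at day 6, and did not pass the test (adjusted p = 0.132). Leaving out any 1 array kept the calls of Tnc, Postn and Col1a2, whereas the other 5 were lost without at least 1 array, with adjusted p-values up to 0.357.

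The basement membrane, the sheet-like matrix under epithelia and around muscle cells, changed at 3 of its 18 genes, each upward. Col4a1 read 1594 and 1654 at day 4 and 5114 and 6353 at day 6 (3.50-fold, adjusted p = 0.00717). Lama1, a laminin chain, rose from 9 and 15 to 80 and 83 (adjusted p = 0.0021), and Nid1, a linker protein between laminin and collagen IV, from 271 and 266 to 1496 and 1071 (adjusted p = 0.0278). The calls of Col4a1 and Nid1 were lost with 1 array left out, at adjusted p-values of 0.1 and 0.219.

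**Figure D2:**
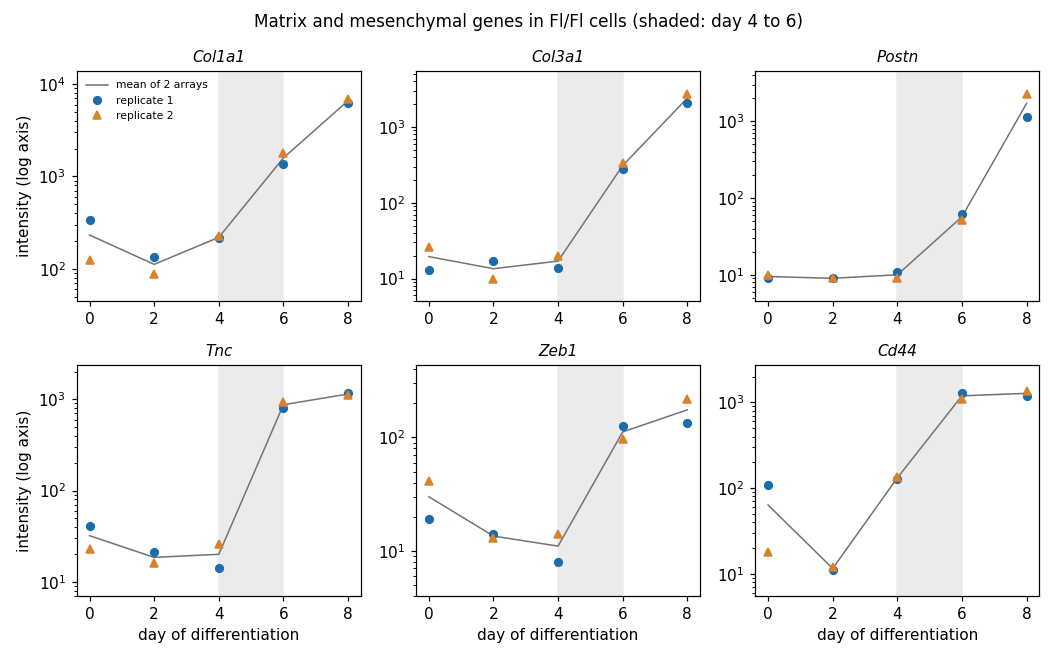
Intensity (log axis) of 6 matrix and mesenchymal genes in each Fl/Fl array against the day of differentiation, with both replicates as points, their mean as a line and the step from day 4 to 6 shaded. Tnc reached 811 and 930 at day 6 and changed little afterwards, whereas Postn, at 62 and 52 on day 6, read 1149 and 2282 at day 8.

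Genes that mark mesenchymal cells, as opposed to their matrix, formed the list with the highest median change, 1.21. Of 28 measured, 8 rose, 1 fell and 19 did not pass the test, and both day 6 arrays lay above both day 4 arrays for 21. The median change of these genes was 1.01 from day 2 to 4, with 11 called higher. From day 6 to 8 it was 0.39, with 2 called higher, and 0 were called lower in either step. Zeb1 and Zeb2 encode repressors of epithelial genes. Zeb1 read 8 and 14 at day 4 and 127 and 97 at day 6 (7.83-fold, adjusted p = 0.00236), and Zeb2 read 22 and 20, then 89 and 114 (4.19-fold, adjusted p = 0.00459). Cd44, a hyaluronan receptor, rose from 129 and 134 to 1306 and 1087 (8.82-fold, adjusted p = 0.00417). Cdh11, a cadherin of mesenchyme, went from 18 and 21 to 327 and 191, and Pdgfrb, a receptor of pericytes and smooth muscle precursors, from 38 and 26 to 191 and 171. Wls, a Wnt secretion factor, and Lgals1 (galectin 1) also rose, as did Tgfbi, a TGF-beta induced matrix protein. All of these genes had both day 6 arrays above both day 4 arrays.

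The other repressors of epithelial genes did not pass the test in this step. Snai1 read 121 and 181 at day 4 and 152 and 135 at day 6, so its groups overlapped. Snai2 read 20 and 17, then 30 and 17, and Twist1 read 88 and 70, then 302 and 211 (adjusted p = 0.0947). Vim (vimentin), the intermediate filament protein of mesenchymal cells, was among the brightest genes, with 9889 and 8611 at day 4 and 25055 and 21067 at day 6. Its 2.49-fold difference gave an adjusted p of 0.291. Cdh2 (N-cadherin) read 1512 and 1284, then 3678 and 2751 (adjusted p = 0.346). The gene that fell was Nt5e, which encodes the ectonucleotidase CD73. It read 27 and 26 at day 2, 532 and 630 at day 4, and 62 and 79 at day 6. Its highest values were thus those of day 4, and the 2 steps differed (adjusted p = 0.00514, up to 0.0675 with 1 array left out). In this list the calls of Zeb1 and Cd44 held without any 1 array, and the other 7 did not (adjusted p up to 0.216).

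Of 24 measured epithelial genes, 4 fell, none rose and 20 did not pass the test, with a median change of -0.15. Epcam, an epithelial adhesion molecule that ES cells share, read 3883 and 4327 at day 4 and 1491 and 1714 at day 6 (2.56-fold lower, adjusted p = 8.46e-06). Esrp1, a splicing regulator of epithelial isoforms, fell from 706 and 816 to 204 and 258 (adjusted p = 0.000556). Ap1m2, an epithelial adaptor of protein sorting, read 865 and 762, then 287 and 299. Cldn7, a tight junction protein, read 2701 and 2649, then 922 and 1061, and its call was lost with 1 array left out (adjusted p = 0.0516). Cdh1 (E-cadherin), in contrast, stayed high: it read 8077 and 8449 at day 4, 7202 and 7350 at day 6, and 3841 and 3366 at day 8. Its log2 difference in the step was -0.18 (SE 0.213, adjusted p = 0.911). The simple-epithelium keratins Krt8 and Krt18 were higher at day 6, at 21776 and 26042 for Krt8 and 29068 and 31160 for Krt18, than at day 4, at 13147 and 14298 and at 13232 and 14315, without passing the test (adjusted p of 0.592 and 0.255).

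Most contractile genes read higher at day 6, but few passed the test. Of 40 measured, 5 rose, none fell and 35 did not pass. Of all 40, 12 had an unadjusted p under 0.05 in the upward direction, the 5 that rose included. Over all 18194 genes, 2534 had an unadjusted limma p under 0.05 in either direction. Both day 6 arrays lay above both day 4 arrays for 28 genes and below them for 1, and the median change was 0.45. The summed intensity of the 40 genes was 106713 to 108450 at day 4 and 152905 to 175624 at day 6. From day 2 to 4 the median change of the list was larger, 0.94, with 17 genes called higher and 1 lower. That step called 1837 of all genes against 629 from day 4 to 6, so the counts of the 2 steps are not directly comparable. From day 6 to 8 it was 0.20, with 2 called higher and 2 lower. The 5 that rose from day 4 to 6 were Tnnc1, Myl4, Tpm2, Des and Csrp2. Tnnc1, the troponin C of slow and cardiac muscle, read 28 and 24 at day 4 and 159 and 168 at day 6 (5.59-fold, adjusted p = 6.76e-09). Myl4, an embryonic and atrial myosin light chain, rose from 10 and 8 to 50 and 49 (4.13-fold, adjusted p = 0.000182). Tpm2 (beta-tropomyosin) was far brighter, with 1404 and 1475 at day 4 and 3625 and 4318 at day 6 (2.74-fold, adjusted p = 0.0326). Des (desmin) read 10 in both and then 28 and 19, and Csrp2, a LIM protein of smooth muscle, 920 and 853 and then 1507 and 1605. The calls of Tnnc1 and Myl4 held without any 1 array, and the other 3 were lost without at least 1 (adjusted p up to 0.274).

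The smooth muscle and skeletal actins read several-fold higher at day 6 without passing the test. Acta2, smooth muscle alpha-actin, read 4406 and 4196 at day 4 and 15472 and 18817 at day 6. Its day 6 mean of 17144.5 ± 2365.3 stood against 4301.0 ± 148.5 (SD, n = 2 each), a 3.97-fold difference with a log2 SE of 1.03 and an adjusted p of 0.419. Acta1, skeletal alpha-actin, read 1929 and 1527, then 5091 and 6786 (3.42-fold, adjusted p = 0.394). Actg2, enteric smooth muscle actin, was at the bottom of the scale at day 4 with 7 in both arrays and read 37 and 48 at day 6 (4.20-fold, adjusted p = 0.061). In none of the 3 did the day 4 and day 6 arrays overlap.

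The spread behind these p-values is that of all 30 arrays, and the median SE of the contractile genes was 0.292 in that fit against 0.16 in a fit of the 10 Fl/Fl arrays, an alternative to the main fit. Acta2 ranged from 118 to 1252 over the 5 null arrays at day 4. When only the Fl/Fl arrays were fitted, the SE of Acta2 fell to 0.374 and its adjusted p to 0.0399. Acta1 then had an adjusted p of 0.0325, Actg2 of 0.0129, Vim of 0.0148, Fn1 of 0.0196 and Krt18 of 0.00379. In that fit 722 genes (3.97%) were higher and 533 (2.93%) lower at day 6. It called 10 of the 40 contractile genes, 12 of the 28 mesenchymal cell genes and 10 of the 38 matrix genes higher, and 2 of the mesenchymal cell genes lower. Pou5f1 and Nanog remained called, at adjusted p-values of 0.0329 and 0.0135, and Sox2 did not (0.0888). Of the 74 named genes called in the main fit, 11 were not called in that of the Fl/Fl arrays. Besides Sox2 these were Cd44 (0.0679), Lefty1 (0.0624), Nodal (0.135), Bgn, Wls, Des, Ankrd1, Myh7, Bmi1 and Igf2r.

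The remaining contractile genes followed by name, each read from its 1 chosen probe set, did not pass the test in either fit. Tagln (transgelin, SM22), an actin-binding protein of smooth muscle, read 3547 and 3080 at day 2, 10657 and 10524 at day 4 and 14498 and 16953 at day 6. Its 1.48-fold difference had an adjusted p of 0.678, and 0.396 in the fit of the Fl/Fl arrays alone. Tpm1 (alpha-tropomyosin) read 12010 and 11861, then 16424 and 16620 (1.38-fold, adjusted p = 0.467). A dim further probe set of Tpm1 read 6 in both arrays, then 60 and 56. It passed in a limma fit of all probe sets (adjusted p = 0.00615), and the remaining Tpm1 probe sets did not. Cnn1 (calponin) read 592 and 599, then 856 and 1319 (adjusted p = 0.724), and Actc1, cardiac alpha-actin, 687 and 569, then 739 and 1452 (adjusted p = 0.767). Myl9, the regulatory light chain of smooth muscle myosin, read 138 and 150, then 136 and 220, with overlapping groups. Mylk, the kinase of that light chain, was at 6 or 7 on all 4 arrays. Srf itself read 295 and 298 at day 4 and 404 and 498 at day 6 (1.51-fold, adjusted p = 0.388). The other Srf probe set moved the opposite way, from 185 and 252 to 117 and 150 (log2 change of -0.69, not passing), so the direction for Srf is not settled.

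**Figure D3:**
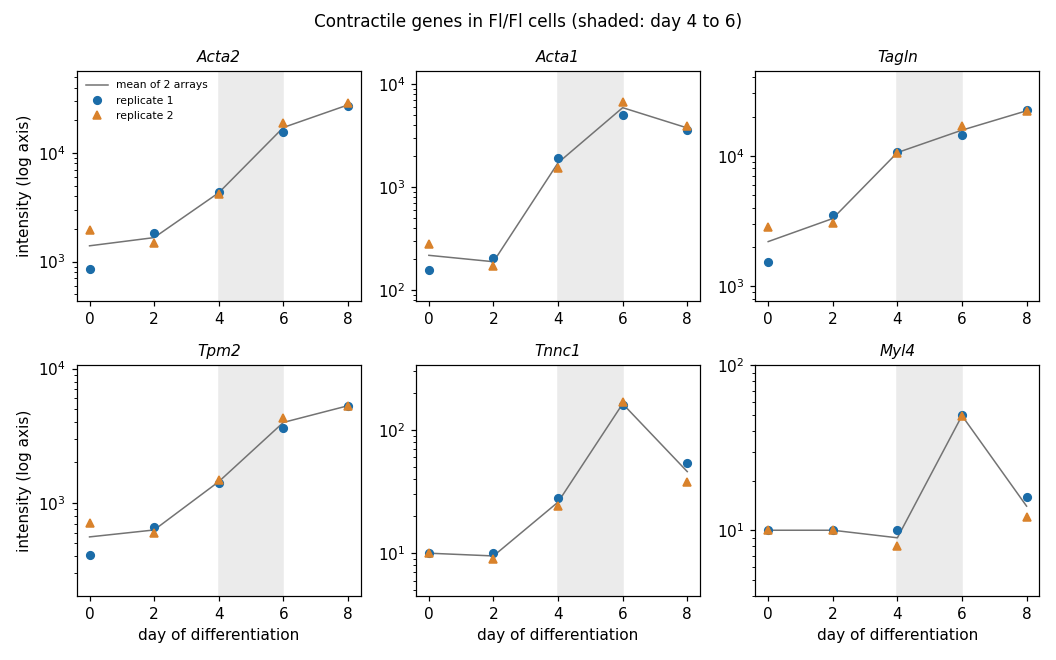
Intensity (log axis) of 6 contractile genes in each Fl/Fl array against the day of differentiation, with both replicates as points, their mean as a line and the step from day 4 to 6 shaded. Acta2 read 15472 and 18817 at day 6 and more at day 8, whereas Tnnc1 and Myl4 peaked at day 6.

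Tnnc1 and Myl4 were transient. Tnnc1 read 10 and 9 at day 2 and 54 and 38 at day 8, and Myl4 10 and 10 at day 2 and 16 and 12 at day 8. For both, the step from day 6 to 8 differed from that from day 4 to 6 (adjusted p = 1.09e-08 for Tnnc1 and 0.000275 for Myl4). Trim54, a muscle ubiquitin ligase of the sarcomere, had the same course, with 14 and 29 at day 4, 324 and 327 at day 6 and 27 and 11 at day 8 (adjusted p of the difference 1.1e-06). Lmo2, a regulator of blood and vessel progenitors, read 11 and 13, then 115 and 91, then 14 and 12 (adjusted p of the difference 2.89e-06).

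The proximal promoters of the contractile genes were read for the CArG box, the sequence bound by Srf, because many genes of this class are known Srf targets. The box was taken as CC, then 6 letters that are each A or T, then GG, a class of letters that reads the same on both strands, and it was sought in the 250 bases before the gene start in the RefSeq promoter table of build GRCm38.p6. It was present in 9 of the 35 contractile genes with a promoter entry (25.7%), against 207 of 14453 genes (1.43%). Of the 4 contractile genes that rose and had an entry, none held the box, and among all genes higher at day 6 it occurred in 2 of 251 (0.797%). None of 23 matrix genes with an entry held it. The second motif sought, CATTCC on either strand, whose last letters can overlap the start of a CArG box, was present in 13.4% of all promoters and in 14 of the 35 contractile ones (40%). A match is a description of letters in this window, and no match says nothing of sites elsewhere. Stretches of 3 promoters are shown because they carry the box in genes described here, with the box in capitals. They lie at chr8:123894809-123894878 (Acta1), chr2:114052883-114052952 (Actc1) and chr17:46556185-46556274 (Srf), each on the minus strand and written 5′ to 3′, upstream of the gene start.
Acta1: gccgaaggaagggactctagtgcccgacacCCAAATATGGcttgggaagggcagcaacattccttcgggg
Actc1: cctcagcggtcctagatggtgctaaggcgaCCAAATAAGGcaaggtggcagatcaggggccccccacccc
Srf: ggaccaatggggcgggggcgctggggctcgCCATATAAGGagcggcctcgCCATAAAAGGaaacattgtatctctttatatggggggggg

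The Acta1 and Actc1 boxes lie 73 and 47 bases before the gene start, and Srf has 2 boxes, 82 and 62 bases before it. None of these 3 genes passed the test in the step, and the values above give their levels.

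Few genes of the primitive streak and mesoderm list passed the test, and those that did included ligands. Bmp4, a bone morphogenetic protein of extraembryonic and lateral mesoderm, read 250 and 347 at day 4 and 2623 and 3185 at day 6 (9.69-fold, adjusted p = 0.00821). Bmp2, a related ligand that is not on the list and was among the 15 largest rises, went from 41 and 51 to 1225 and 1133 (23.8-fold, adjusted p = 0.000743). Msx2, a transcriptional target of this pathway, read 13 and 10, then 212 and 161 (12.2-fold, adjusted p = 0.00107), and Wnt5a, a non-canonical Wnt ligand, 49 and 89, then 654 and 321 (adjusted p = 0.0288). Of the 34 measured genes of primitive streak and mesoderm, Msx2, Bmp4 and Wnt5a rose, Apela fell and 30 did not pass the test, with a median change of 0.06. Mixl1, a streak transcription factor, had come up from 5 in both arrays of day 2 to 1964 and 2110 at day 4 and held 1843 and 1658 at day 6. Eomes read 1216 and 1094, then 2244 and 1345, and Mesp1 6 and 15, then 5 and 6. Bmp4 and Wnt5a lost their calls with 1 array left out (adjusted p of 0.0893 and 0.285).

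The other large rises were of mixed kinds. Igfbp5, a secreted binding protein of insulin-like growth factors, had the smallest p-value among those named, going from 4 in both arrays to 153 and 133 (18.3-fold, adjusted p = 5.15e-14). Runx1, a transcription factor of blood formation, read 13 and 10, then 378 and 312 (22.5-fold). Cd248 (endosialin), a receptor of pericytes and fibroblasts, read 9 and 14, then 282 and 281 (18.7-fold), and Rgs5, a pericyte regulator of G protein signalling, 7 and 6, then 157 and 121. Maf, a transcription factor, read 23 and 14, then 294 and 258 (adjusted p = 4.63e-09). Pmp22, a membrane protein of Schwann cells and fibroblasts, read 190 and 230, then 3368 and 3083, the brightest of this set at day 6. Nrp1, Stmn4 and Filip1l were the others among the 15 largest. In these genes, as in all of the 15, the day 4 and day 6 arrays did not overlap, which the choice of the genes required. Those of the set that lost their calls with 1 array left out were Nrp1, Rgs5, Stmn4, Cdh11 and Col3a1, at adjusted p-values up to 0.2.

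The largest falls held more than pluripotency genes. Olig1, a basic helix-loop-helix factor known from oligodendrocytes, read 287 and 331 at day 4 and 3 and 4 at day 6, the largest fall of any gene (41.7-fold, adjusted p = 6.83e-09). It had been between 287 and 489 on every Fl/Fl array from day 0 to 4, and the related factor Olig2 went from 264 and 269 to 8 in both arrays (22.5-fold). Apela, a peptide ligand of the apelin receptor made by ES cells, read 1579 and 1707, then 34 and 83 (28.6-fold, adjusted p = 4.16e-06). The amino acid transporter Slc7a3 fell from 827 and 822 to 90 and 136, and the kinase Pim2 from 996 and 944 to 124 and 166. Ina, Slc27a2, Slc6a15 and Dok2 made up the rest of the 15 along with genes given above. The calls of Utf1, Nt5e, Slc27a2 and Dok2 were lost with 1 array left out (adjusted p up to 0.205).

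**Figure D4:**
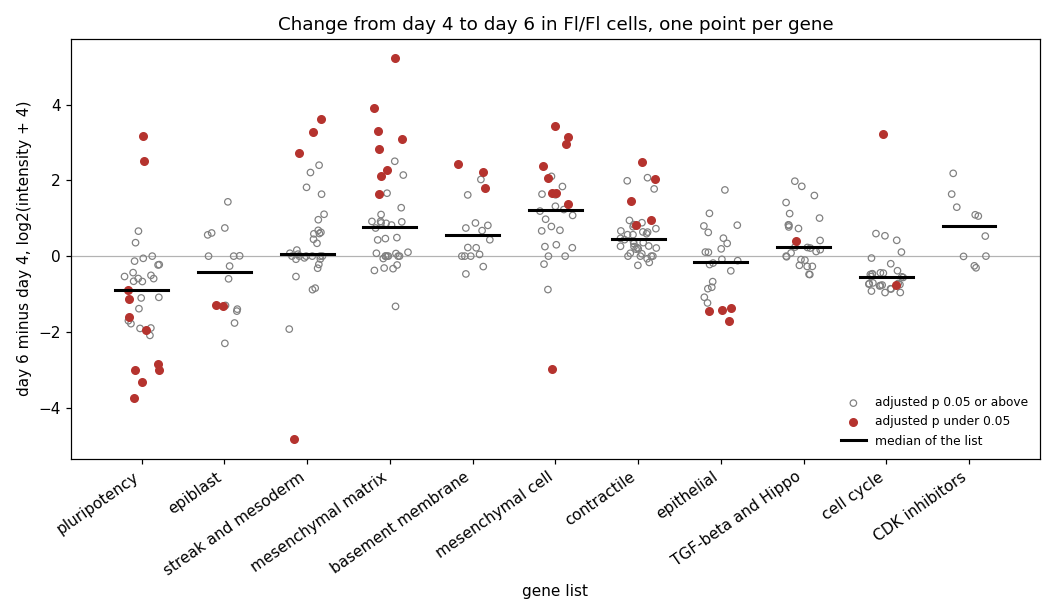
Change from day 4 to 6 in Fl/Fl cells, as the difference of log2(intensity + 4), for each measured gene of 11 lists, with filled points for an adjusted p under 0.05 and a bar at each list's median. The medians were -0.90 for pluripotency, 0.78 for mesenchymal matrix, 1.21 for mesenchymal cell and 0.45 for contractile genes.

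Some lists had no call in 1 direction by limma. Of these, the members with an unadjusted p under 0.05 that way were 3 epiblast genes, 3 epithelial genes and 5 inhibitors of cyclin-dependent kinases in the upward direction. In the downward direction they were 1 gene each of the mesenchymal matrix, TGF-beta and Hippo, cardiac and vascular, endoderm and imprinted lists, and 0 of the basement membrane, contractile, trophoblast and kinase inhibitor lists. These counts are to be read against the 2534 of 18194 genes with such a p in either direction.

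Cell cycle genes were lower at day 6 by small amounts. Both day 6 arrays lay below both day 4 arrays for 24 of 30 genes, and the median change was -0.55, yet 1 gene fell and 1 rose at the threshold. Cdc20, an activator of mitotic exit, read 5637 and 5873, then 3560 and 3225 (adjusted p = 0.0155). Ccnd2 (cyclin D2) rose from 65 and 72 to 688 and 668 (9.42-fold, adjusted p = 0.00744). Both calls were lost with 1 array left out (adjusted p of 0.162 and 0.0642). In the fit of the Fl/Fl arrays alone, 15 of the 30 were lower. None of the 10 inhibitors of cyclin-dependent kinases and related growth-arrest genes was called by limma, with 5 at an unadjusted p under 0.05, each higher at day 6. Of all 18194 genes, 2534 had such a p in either direction. Cdkn2b (p15) read 269 and 255, then 1171 and 1240 (adjusted p = 0.0568), and Cdkn1a (p21) 1434 and 1268, then 2727 and 3036 (adjusted p = 0.273). In the fit of the Fl/Fl arrays alone 4 of the 10 were higher and none lower, among them Cdkn2b (adjusted p = 0.00325) and Cdkn1a (0.00399).

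TGF-beta and Hippo signalling drive many matrix and contractile genes, and the list for them mixes ligands, receptors and transducers with targets. Of its 27 measured genes 1 rose and none fell, with a median change of 0.23. In the fit of the Fl/Fl arrays alone 7 were higher and none lower, among them the ligand Tgfb2 (adjusted p = 0.0135), which read 569 and 511 at day 4 and 1777 and 2127 at day 6, and the transducer Smad3 (0.015), at 164 and 171 and then 388 and 352. Ccn2 (connective tissue growth factor, listed as Ctgf in older annotation) read 1042 and 990, then 3341 and 4817 (3.94-fold, adjusted p = 0.198, and 0.0319 in the fit of the Fl/Fl arrays alone). Ccn1 (Cyr61) read 5342 and 4870, then 5234 and 6926, with overlapping groups. The gene that rose, Ankrd1, was at 7 and 6 and then 8 and 12, close to the bottom of the scale, and its call was lost with 1 array left out (adjusted p = 0.277).

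Markers of other cell types were followed in 4 lists. Of 26 cardiac and vascular genes, 18 were at 20 or below on all 4 arrays and 5 rose: Runx1, Lmo2, Nppb, Myh7 and Tbx20. Of these, Nppb, a natriuretic peptide, went from 3 in both arrays to 47 and 69, and Myh7, a slow myosin heavy chain, from 11 and 10 to 38 and 102. Their calls and that of Tbx20 were lost with 1 array left out (adjusted p up to 0.203). In endoderm 1 of 22 genes rose (Krt20), in trophoblast 1 of 14 (Gata3), and in the neural list Ncam1 rose and Olig2 fell among 16. The calls of Krt20 and Gata3 were lost with 1 array left out (adjusted p of 0.142 and 0.118). The summed intensity was 227 to 229 at day 4 and 839 to 868 at day 6 for the cardiac and vascular list. For the endoderm list it was 3697 to 3906 and then 7120 to 8647. The part of such cells in the changes above was not tested.

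Among the chromatin genes, Jarid2 itself read 709 and 710 at day 4 and 589 and 481 at day 6, after 3335 and 3340 at day 0, and did not pass the test in the step (adjusted p = 0.636). Arrays labelled null read 1257 to 1470 for the same probe set at day 4 and 781 to 1206 at day 6. The sources used here do not give the deleted part of the gene, so this probe set checks neither genotype. Of 18 Polycomb genes, Cbx7, a chromobox subunit prominent in ES cells, fell from 219 and 278 to 31 and 50 (5.77-fold, adjusted p = 3.05e-05), and Bmi1, a ring finger subunit, rose from 39 and 50 to 171 and 176 (3.68-fold, adjusted p = 0.00498). With 1 array left out Bmi1 had an adjusted p of 0.0677. Ezh2, Suz12 and Eed, the core of Polycomb repressive complex 2, did not pass the test. Ezh2 read 848 and 885, then 813 and 634.

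The same 2 days were measured in the cells labelled null, with 5 arrays each, and the difference between the 2 steps was tested in the same fit. It passed for 378 genes (2.08%). The difference uses the same 4 Fl/Fl arrays by which many of the named genes were chosen, so for these genes it is not independent of the choice. In the null arrays Pou5f1 read 8154, 7584, 6254, 6556 and 6950 at day 4 and 4197, 2737, 3756, 4981 and 4795 at day 6, so every null array of day 6 was brighter than every Fl/Fl array of that day. The fall in null cells was 1.76-fold, and it was smaller than in Fl/Fl cells by 2.51 on the log2 scale (SE 0.447, adjusted p = 0.00228). Nanog read 1560, 2212, 1153, 1037 and 1169 in the null arrays of day 4 and 1418, 684, 1182, 1551 and 1928 at day 6, with overlapping groups, and its difference between the steps was 2.75 (SE 0.599, adjusted p = 0.0128). Leaving out any 1 of the 14 arrays kept this difference for Pou5f1 (adjusted p of at most 0.0272), whereas Nanog lost it without 2 of them in turn, reaching 0.0933 without Fl/Fl day 6 replicate 1. L1td1, Olig1 and Apela also differed (adjusted p of 0.00107, 3.36e-07 and 0.000638). Sox2 fell in both, 3.06-fold and 2.77-fold, with a difference of 0.14 (SE 0.408, adjusted p of 1).

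Of the 8 matrix genes that rose in the Fl/Fl cells, none read above 82 on a null array of either day. Tnc read 14 on all 5 null arrays at day 4 and 14 to 44 at day 6 (difference of steps -4.40, SE 0.531, adjusted p = 4.1e-05). Col1a2 read 9 to 17, then 13 to 18 (adjusted p of the difference 0.00936), and Postn 8 to 9 on both days (adjusted p = 0.000939). Igfbp5 read 4 or 5 on all 10 null arrays (adjusted p = 1.78e-12). For Zeb1 and Zeb2 the steps differed as well, at adjusted p-values of 0.00844 and 0.0437. With 1 array left out, Col1a2, Zeb1 and Zeb2 reached adjusted p-values of 0.0527, 0.0724 and 0.233, and Tnc, Postn and Igfbp5 kept the call. Col1a1, at 10 to 35 and then 39 to 82, did not pass the test of the difference (adjusted p = 0.509), and neither did Col3a1, at 8 to 9 and then 8 to 19 (0.0554). Col11a1, Bgn and Loxl1 read at most 18, 16 and 28 on the null arrays of day 6.

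The contractile genes split by this test. Tnnc1 and Myl4, which rose in Fl/Fl cells, read at most 18 and 10 on the null arrays of day 6, and their steps differed (adjusted p = 4.68e-07 and 0.00174). Acta2, in contrast, rose in null cells, from 118 to 1252 at day 4 to 2329 to 6323 at day 6, a 9.82-fold step with an adjusted p of 0.00132. Acta1 rose there 20.6-fold, from 27 to 273 up to 1093 to 2739 (adjusted p = 1.5e-05). The differences between the steps did not pass for either actin, at 1.31 (SE 1.22, adjusted p of 1) and 2.59 (SE 1.05, adjusted p = 0.331). At day 6 the highest null array still read below the lower Fl/Fl array for Acta2 and for Acta1. Epcam fell less in null cells, by 1.36-fold against 2.56-fold (adjusted p of the difference 0.00494, and 0.0551 without Fl/Fl day 6 replicate 1).

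The largest differences between the steps were of streak genes that the Fl/Fl cells already made at day 4. Mixl1 read 5 to 27 on the null arrays of day 4 and 1312 to 5127 at day 6, while it read between 1658 and 2110 in Fl/Fl cells over the same days (difference 7.87, SE 1.13, adjusted p = 0.000316). Lhx1 and Cyp26a1, a streak transcription factor and a retinoic acid degrading enzyme, gave differences of 6.17 and 5.63 (adjusted p of 0.0204 and 0.0109, and up to 0.124 and 0.0626 with 1 array left out). Nt5e differed by 5.31, having fallen in Fl/Fl cells and risen in null cells from 27 to 190 up to 158 to 843. The null arrays themselves were not uniform, and replicates 1 and 2 differed from 3 to 5. At day 6 Rgs5 read 161 and 152 on the former and 28, 12 and 18 on the latter, and Nrp1 117 and 454 against 16, 22 and 16. The 3'-to-5' actin ratios of replicates 1 and 2 were 1.545 to 1.625 over both days, and those of replicates 3 to 5 were 1.288 to 1.385. The Y-linked gene Eif2s3y also separated replicates 1 and 2 from each other. At days 4 and 6 it read 218 and 217 on null replicate 1 and 12 and 13 on replicate 2. It read 594 to 850 on replicates 3 to 5, against 176 to 234 on the 4 Fl/Fl arrays. The part of these splits among the null arrays in the differences was not tested.

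**Figure D5:**
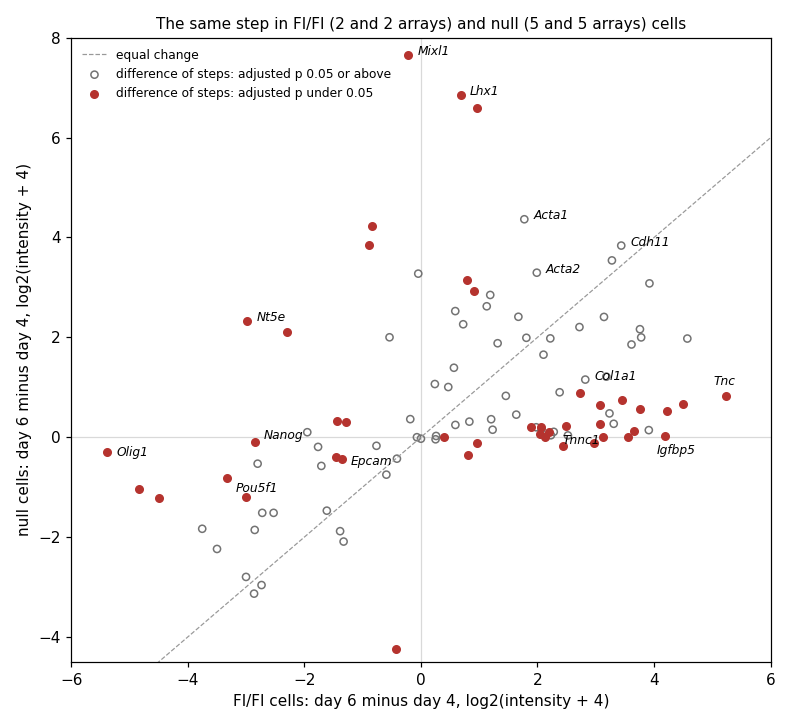
Change from day 4 to 6 in Fl/Fl cells (horizontal, 2 arrays a day) and in null cells (vertical, 5 arrays a day), both as differences of log2(intensity + 4), for the 108 named genes, with the 43 whose steps differed at an adjusted p under 0.05 filled and the dashed line at equal change. Tnc and Igfbp5 lie near 0 on the vertical axis, and Mixl1 lies near 0 on the horizontal axis. Many of these genes were chosen by their change in the same Fl/Fl arrays, and some by this difference itself. The filled share is therefore not comparable with the 2.08% of all genes.

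Set against the steps before and after it in Fl/Fl cells, the step from day 4 to 6 differed from day 2 to 4 for 270 genes (1.48%), and day 6 to 8 differed from it for 136 (0.747%). These differences share the arrays of day 4 or day 6, so a high or low value there moves both steps. Ghr (growth hormone receptor) read 14 and 26 at day 2, 769 and 709 at day 4 and 142 and 153 at day 6 (adjusted p of the difference 5.05e-08). Sp5 and Fgf8, streak genes of the Wnt and FGF pathways, likewise came up by day 4: Sp5 read 8 and 15, 1248 and 1001, then 701 and 549 at days 2, 4 and 6 (adjusted p = 0.00195). The step also differed from the one before for Epcam and Cldn7, with adjusted p-values of 0.021 and 0.00179, and with 1 array left out these reached 0.264 and 0.0298. After day 6, Mgp, a matrix inhibitor of calcification, read 265 and 633 at day 8, having been at 5 on both arrays of days 4 and 6 (adjusted p = 1.82e-09).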

How the data were processed

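The deposited series matrix holds Affymetrix probe set intensity values on a linear scale, per the labels measured from biotin-labelled cRNA. How the authors normalized these deposited values was not given in the sources used here. Probe sets were named from the platform annotation and the RefSeq gene table of GRCm38.p6: of 45101 probe sets, 34958 had 1 gene, 932 several and 9211 none, which left 18194 genes, 1 probe set each. Values were taken as log2(intensity + 4), without further normalization, and all 10 groups (30 arrays) were fitted together with limma 3.58.1 in R 4.3.3, with 20 residual degrees of freedom. The threshold was an adjusted p of 0.05 (Benjamini-Hochberg over all genes). No batch could be tested, since the labels used here name none. On simulated data the fit for the step recovered 48% of genes changed by a log2 of 1 and 91% of those changed by 2. For the difference between null and Fl/Fl steps the shares were 36% and 83%. They were 13% and 54% for the difference from the day 2 to 4 step, and 6% and 52% for that of the day 6 to 8 step. Unchanged genes called numbered 12, 6, 8 and 0 in the same order, over 18194 genes. The changed genes were drawn only from brighter genes, so recovery of dim genes was not measured. Each simulated gene had the same normal spread in all groups, as the fit assumes. The effect of groups that vary unequally, as the null arrays did for Acta2, was therefore not measured. With 2 arrays a day the number of arrays limits the precision.

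Genes named were 41 fixed genes (40 measured), the 15 largest rises and falls that passed the test without overlap of the arrays, up to 6 called members per list and direction, and up to 5 per other comparison, unnamed gene models skipped. Further members of the 17 lists (such as Rif1, Lgals1, Cdkn2b and Ezh2) and Eif2s3y were chosen after their values were seen. The lists and comparisons were chosen with earlier results of these data known. Alternatives were another pseudocount, filter, scaling, probe set rule, subset of arrays, trend and replicate block, and leaving out each array.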

Additional observations from a re-analysis of the deposited data

Results flagged for a closer look

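The day 4 to 6 step differed between null and Fl/Fl cells for 10 of the 40 measured genes fixed by name. The test was the interaction of genotype and day in limma, which passed for 2.08% of all genes. The genes were fixed with earlier results of these data known, and the test uses the same Fl/Fl arrays. The share among the fixed genes is therefore not comparable with that of all genes. The null step minus the Fl/Fl step, on the log2 scale, was 2.51 for Pou5f1, 2.75 for Nanog, 7.87 for Mixl1, 0.92 for Epcam, 2.36 for Krt8 and 2.01 for Fn1. It was -3.80 for Fgf4, -1.87 for Zeb2, -2.82 for Col1a2 and -2.12 for Postn. With each of the 14 arrays left out in turn, Krt8 and Zeb2 lost the call in 12 cases, Nanog and Col1a2 in 2 and Epcam in 1. Pou5f1, Fgf4, Mixl1, Postn and Fn1 kept it throughout. Fgf4 was already at 5 and 9 in Fl/Fl cells at day 4, so little signal was left there for a fall.

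For 40 genes on the same 2 sets of 5 null arrays, 80 groups of values in all, 11 groups had 1 value apart from the other 4 by Dixon's criterion, which chance gives in about 1 group in 20. These 11 fell on 7 arrays. Of them, 3 lay at the bottom of the scale, where values are whole numbers and a step of 1 against ties is enough: Col3a1 and Postn at day 4, at 8 in replicate 3 and 9 in the others, and Postn at day 6, at 8 in replicate 5 and 9 in the others. At day 4 Mixl1 stood apart in replicate 2, at 27. At day 6, replicate 1 stood apart for Mesp1 at 292, Cdh1 at 5535 and Tagln at 7951, and replicate 2 for Col3a1 at 19. Replicate 3 stood apart for Zeb2 at 30, replicate 4 for Esrrb at 12, and replicate 5 for Col1a2 at 13.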

How the results depend on the processing

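The count of genes that changed from day 4 to 6, 629 in the fit of all 30 arrays, was 1255 in the fit of the 10 Fl/Fl arrays, 451 of them shared, and 279 to 436 with 1 of the 4 arrays left out (303 and 436 without day 4 replicate 1 or 2, 304 and 279 without day 6 replicate 1 or 2). The fit of the 4 arrays alone gave 558, of which only 133 were shared and 43.9% were higher, and the other alternatives gave 619 to 807. With the replicate number as a replicate block it was 807; the numbers share only a label, since the deviations of same-numbered arrays of days 4 and 6 correlated at 0.0532. The difference between the null and Fl/Fl steps, 378 genes, ranged from 260 to 480, and from 260 to 441 with 1 array left out. The difference from day 2 to 4, 270 genes, was 605 in the fit of the Fl/Fl arrays and 740 in that of its own groups, and 145 to 267 with 1 array left out, lowest without day 4 replicate 1. The difference of day 6 to 8, 136 genes, was 73 when the dimmest 40% of genes were left out and 232 in the fit of its own groups, and 102 to 240 with 1 array left out, highest without day 8 replicate 1. Of the 74 named genes called in the step, 17 were called under all 14 alternatives, 57 were lost under at least 1, and 0 changed direction; 50 were lost in the fit of the 4 arrays alone and 11 in that of the Fl/Fl arrays. Scaling to a common 75th percentile moved the median of all genes to -0.06. Of 91 further probe sets of 43 called named genes, 66 moved in the same direction, 37 of them called, and 0 were called in the opposite one. The further probe sets of Epcam, Igfbp5, Col3a1, Cdh11 and Apela were among those not called. Signals near the bottom of the scale, where probe sets read under about 20, limit what falls and small rises can show. The causes of these changes were not tested.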

Other observations

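Imprinted genes, which are expressed from 1 parental allele and include many regulators of growth, changed at few members in this step. Of 17 measured, 1 rose, none fell and 16 did not pass the test, with a median change of 0.43. Igf2r, the receptor that clears insulin-like growth factor 2, read 423 and 501 at day 4 and 1033 and 1101 at day 6 (2.31-fold, adjusted p = 0.0152 by limma). It read 2380 and 3616 at day 8, and its call was lost with 1 array left out (adjusted p = 0.156).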
